A study of Lactuca sativa with 12 samples.

Results

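In ‘Salinas’ lettuce (Lactuca sativa), 60 of the 23933 genes in the expression table were higher after 4 h at 4 °C than in warm-grown plants and lower than in warm-grown plants after 7 d. Members were chosen on the mean CPM (the reads of a gene scaled to a library total of 1000000 reads) of each time-point, with 1 CPM added. The ratio to 0 h had to be at least 1.75 at 4 h and at most 0.6 at 7 d, which 66 genes met. Of these, 6 genes were set aside by the rule and are not members. They appear below only in list counts, in marker sums and as a neighbour in gene order. Since the values at 0 h, 4 h and 7 d chose the members, they are given below as a description, and nothing is read from the counts of members past a threshold at 4 h or 7 d. The level at 24 h, whose libraries the rule did not use, is the measure on which tests are reported gene by gene. The 0 h libraries serve both the rule and that test.

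Above-ground tissue of soil-grown plants that were 18 days old at the start was sequenced at 4 time-points, with 3 replicates of each and 12 libraries in all. Plants of the 0 h group grew at 20 °C with 350 to 400 µmol m−2 s−1 of light, and plants of the 4 h, 24 h and 7 d groups of the same cultivar were moved to 4 °C with about 100 µmol m−2 s−1, all in a 16-h photoperiod. Temperature and light changed together, the 7 d plants were older, and the hour of the day at harvest is not given in the sources used here, so their parts in any difference cannot be told apart. Between 18609189 and 25952306 reads per library lay on the genes of the table, and a level of 3 reads, taken as the floor, was 0.116 to 0.161 CPM by library.

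Plants in the cold first take in the change of temperature through membranes, calcium and kinases, and a wave of transcripts appears within hours and often recedes as acclimation proceeds. Growth and water transport are often held back meanwhile. Among the regulators of that balance is cytokinin, a hormone of cell division, which acts through a phosphorelay from receptor histidine kinases to response regulators. Aquaporins are channels of the plasma membrane (PIP class) and of other membranes that let water pass, and their amount is known to set how easily water moves through leaf and root cells.

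All 60 members passed the filter on low values (0.5 CPM or more in 2 or more of the 12 libraries), as did 22306 genes overall. A description was at hand for 18 members, from the portion of the study's list of cold-regulated genes used here, which covers linkage groups 0 to 3 in full and linkage group 4 in part. A further 5 were listed without one, and 37 were not in that portion. By the linkage group in their IDs, members were spread over groups 1 to 9, with 11 on group 4, 9 on group 5 and 3 on group 7. Mean levels over the 12 libraries ran from 1.01 to 208 CPM with a median of 13.6 CPM, against 11.2 CPM over all genes tested.

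The replicates of warm-grown plants were not equally alike. Across genes, replicate 3 at 0 h correlated with the other replicates at r = 0.980 and r = 0.982, whereas all other pairs of replicates lay between 0.992 and 0.996. Among the members it was the highest of the 0 h libraries in 31 (51.7%), against 29.7% of all genes tested. Without it the rule would choose 66 genes, 44 of them among the 60 members. Genes of photosynthetic tissue were abundant in every library. Those summed were 11 genes of Rubisco small chains, chlorophyll a-b binding proteins and photosystem subunits. Their sum was 43054 to 45148 CPM before the cold, 40121 to 41232 CPM after 4 h, 28553 to 32522 CPM after 24 h and 13076 to 13324 CPM after 7 d. Rubisco small chains made up most of it before the cold. The largest, Ls4g153980.1, had means of 14290 CPM before the cold and 2479 CPM after 7 d. The 3 genes taken as root markers summed to 2.90 to 6.36 CPM before the cold and 13.9 to 18.7 CPM after 4 h. They summed to 0.826 to 3.32 CPM after 24 h and 0.154 to 0.321 CPM after 7 d. Of these genes, 2 met both ratios and were set aside by the rule, which thus fixed most of this course. The third had a mean of at most 0.692 CPM at any time-point. As flower markers, the descriptions gave only 2 genes, both named Floral homeotic protein APETALA 2, and whether they mark flower tissue here was not tested. They summed to 16.4 to 25.9 CPM before the cold, 47.0 to 53.9 CPM after 4 h, 44.8 to 51.1 CPM after 24 h and 32.3 to 40.6 CPM after 7 d. Vascular markers, 6 genes, summed to 102 to 138 CPM before the cold, 96.3 to 105 CPM after 4 h, 73.9 to 106 CPM after 24 h and 50.7 to 66.2 CPM after 7 d. All of these markers came from the genes that the study had selected as cold-regulated in these same libraries. Their changes thus follow in part from that selection and cannot measure tissue make-up. In bulk tissue, fewer cells of a type and less RNA per cell cannot be told apart, and the part of tissue make-up in the members' levels was not tested.

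Summed over the 60 members, the level was 1625, 1467 and 1646 CPM in the 0 h libraries and 3525, 3464 and 3693 CPM in the 4 h libraries. It was 1274, 1338 and 1511 CPM after 24 h and 580, 652 and 648 CPM after 7 d. The 24 h libraries thus stood far below those of 4 h, overlapped those of 0 h, and stood above those of 7 d.

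**Figure D1:**
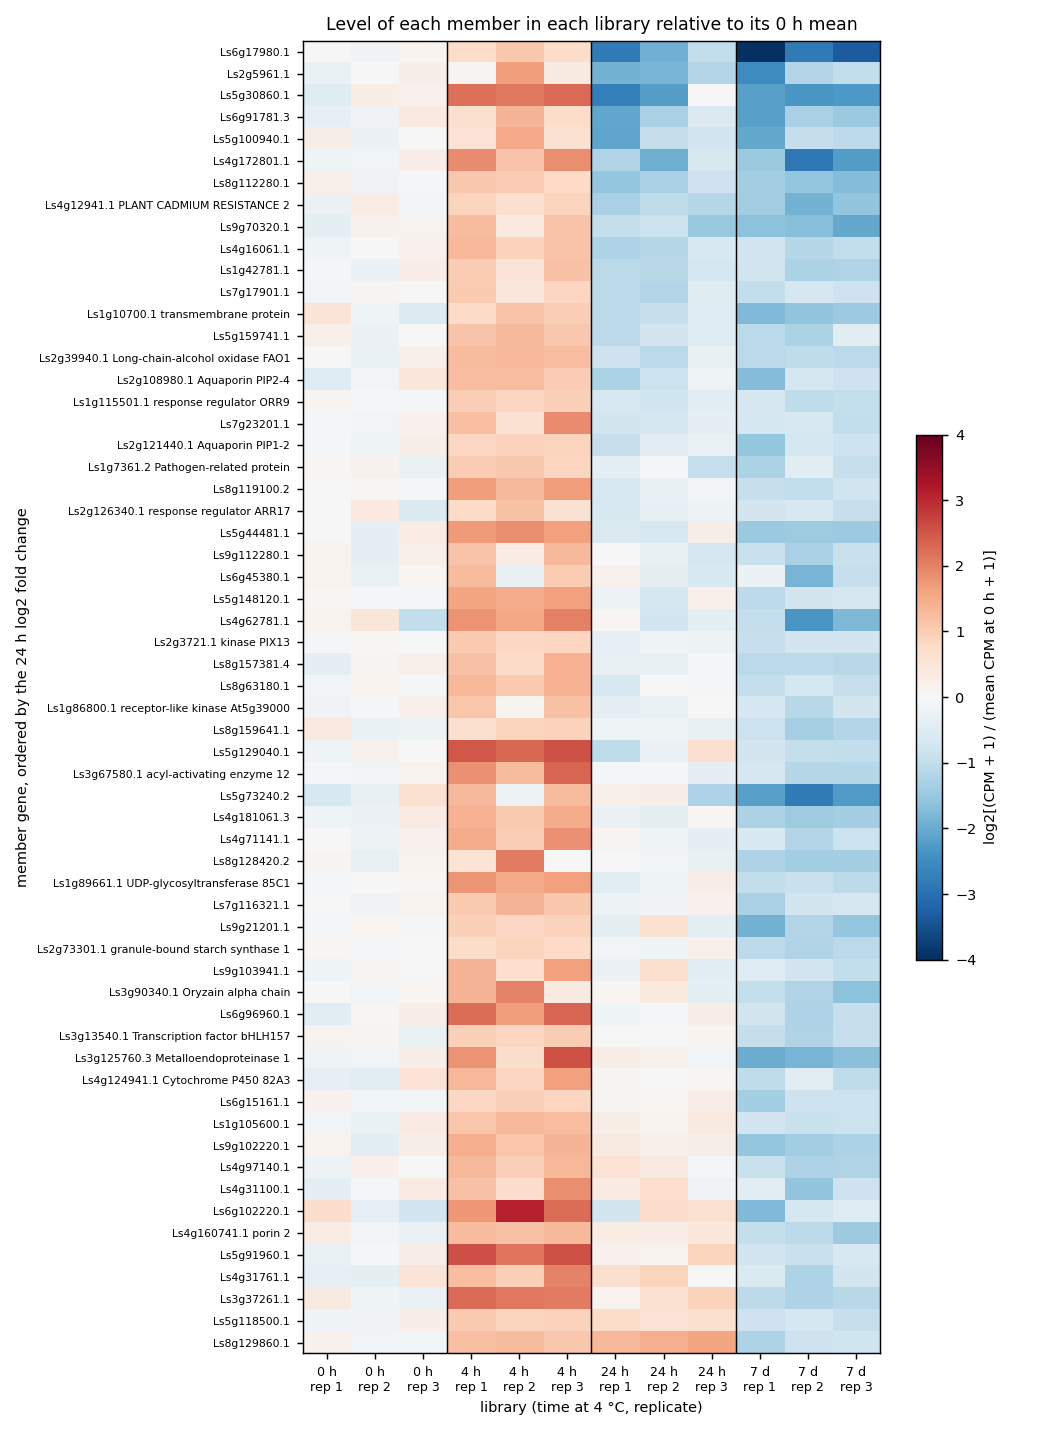
Level of the 60 members (rows, ordered by their log2 fold change at 24 h) in the 12 libraries (columns), as log2 of CPM + 1 over the 0 h mean + 1, with red above and blue below the 0 h mean. The red block at 4 h and the blue block at 7 d follow from the choice of members, and the 24 h columns run from dark blue in Ls6g17980.1 at the top to red in Ls8g129860.1 at the bottom.

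At 4 h the ratio to 0 h ran from 1.75 to 5.53 with a median of 2.26, and at 7 d from 0.101 to 0.598 with a median of 0.50. In 55 members every 4 h library was above every 0 h library, which was so in 22.6% of all genes tested. In 56 members every 7 d library was below every 0 h library, against 18.4% of all genes. By the thresholds of the study (a 2-fold change and an adjusted p-value of 0.01), 32 members were past the threshold at 4 h, where 5.15% of all genes were higher, and 29 at 7 d, where 3.41% were lower. With edgeR the count at 7 d was 54, where 7.63% of all genes were lower. These counts are fixed in large part by the choice of members.

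Genes on either side of the thresholds had ratios close to each other, at differing levels. Granule-bound starch synthase 1 (Ls2g73301.1) and Ls7g17901.1 were just inside the 4 h threshold with ratios of 1.7504 and 1.7509, and Ls4g36381.1 and Ls8g63761.3 were just outside it with 1.7464 and 1.7433. At 7 d, Ls9g103941.1 and the response regulator ARR17 (Ls2g126340.1) were just inside with 0.5981 and 0.5906, and Ls2g82001.1 and Ls9g68540.1 just outside with 0.6026 and 0.6054.

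At 24 h the members had on balance come back to the warm level or below it, by a ratio whose 0 h libraries also chose the members. The ratio of the 24 h mean to the 0 h mean ran from 0.306 to 2.74 with a median of 0.874, against 1.02 over all genes tested. It was below 1 in 41 members (68.3%), against 47.1% of all genes, and above 1 in 19. For 14 members (23.3%) it was already at or under 0.6, the mark that the rule set for 7 d, against 7.29% of all genes, and for 45 it lay between 0.6 and 1.75. In 57 of the 60 members the mean was lower at 24 h than at 4 h and lower again at 7 d, as in 19.1% of all genes, although the end points of that order were part of the choice. In 56 members every 24 h library was below every 4 h library, against 27.2% of all genes, and in 40 every 7 d library was below every 24 h library, against 18.3%. The 4 h and 7 d libraries in these counts also chose the members, so the counts are a description.

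The other genes that met the 4 h ratio but not the 7 d ratio gave a different picture at 24 h. Of these 1592 genes, 806 still had a 24 h ratio of at least 1.75, as did 1 of the 60 members, and 3 were at or under 0.6, as were 14 members. Their median 24 h ratio was 1.76. This is a description, since the 7 d level divides these genes and 24 h lies next to it in the time course.

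Limma on log2(CPM + 1), fitted to all 12 libraries and all 22306 genes, called 6 members (10%) lower at 24 h than at 0 h, where 3.55% of all genes were called lower. It called 1 member (1.67%) higher, where 5.99% of all genes were called higher. The median log2 fold change of the members was -0.20, against 0.04 over all genes, with 42 members (70%) below 0, against 46.1% of all genes, and 18 above. At an unadjusted p under 0.05, 20 members (33.3%) were lower, against 21.6% of all genes, and 4 (6.67%) higher, against 28.0%. A further 6 members passed the adjusted p of 0.01 on the lower side and 1 on the higher side with changes under 2-fold, as did 8.48% and 11.1% of all genes. The quasi-likelihood test of edgeR on the recovered reads called 10 members (16.7%) lower, where 6.26% of all genes were called lower, and the same 1 member higher, where 7.18% were, and 5 of the 10 were among limma's 6. Every 24 h library was below every 0 h library in 18 members (30.0%), against 21.0% of all genes, and above in 2 (3.33%), against 28.5%. As the 0 h libraries also chose the members, the shares of members beside those of all genes are a description.

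**Figure D2:**
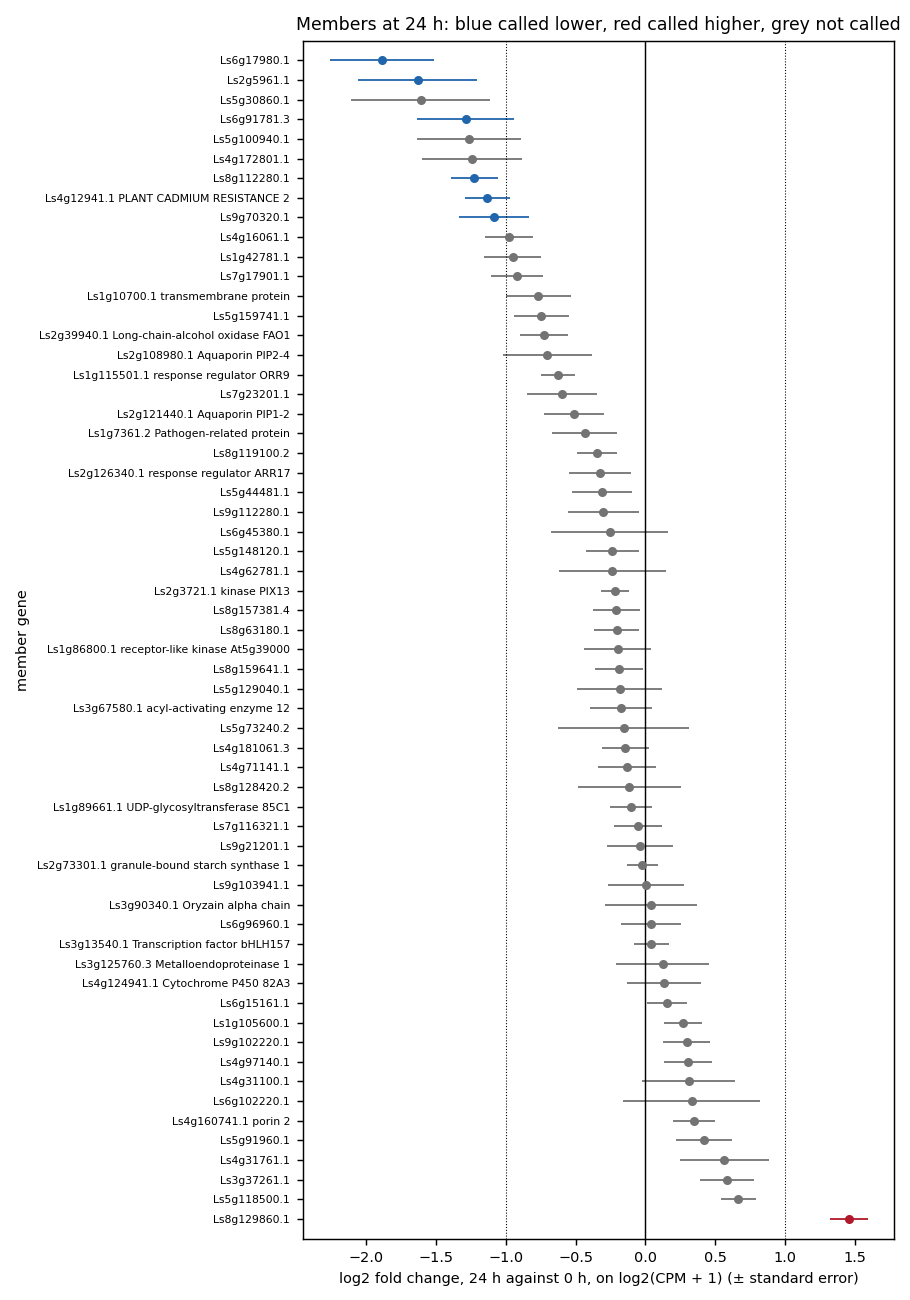
Log2 fold change at 24 h against 0 h on log2(CPM + 1), with its standard error from limma, for each of the 60 members (n = 3 libraries per time-point). Blue points are the 6 members called lower, the red point is the 1 called higher, grey points were not called, and dotted lines mark a 2-fold change.

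Of the members called lower at 24 h, the largest change was in Ls6g17980.1, which has no description here. Its level was 112, 99.6 and 120 CPM before the cold, 186, 234 and 183 CPM after 4 h, 15.1, 28.8 and 55.6 CPM after 24 h, and 5.93, 14.8 and 10.2 CPM after 7 d. None of the 4 groups overlapped, and the lowest 24 h library lay just above the highest of 7 d. The fall of Ls6g17980.1 at 24 h against 0 h was -1.89 in log2 units (SE 0.373, limma adjusted p = 0.00138).

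PLANT CADMIUM RESISTANCE 2 (Ls4g12941.1), the namesake of an Arabidopsis membrane protein that carries zinc out of cells, was the only described member called lower, and it is named here after its values were seen. It had 39.7, 58.3 and 43.5 CPM before the cold, 88.4, 74.7 and 88.6 CPM after 4 h, 18.6, 22.7 and 20.9 CPM after 24 h, and 17.4, 11.9 and 15.0 CPM after 7 d. All 24 h libraries were well below all 0 h libraries and close to those of 7 d. The log2 fold change at 24 h was -1.13 (SE 0.161, limma adjusted p = 0.000121), and it was under 2-fold without replicate 2 of 0 h, at -0.97.

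The other members called lower have no description and were also named after their values were seen. Ls8g112280.1 went from 9.64, 7.43 and 7.76 CPM before the cold to 2.17, 2.76 and 4.17 CPM after 24 h (log2 fold change -1.23, SE 0.170, limma adjusted p = 0.0001). Ls9g70320.1 went from 23.5, 35.7 and 34.8 CPM to 15.8, 16.9 and 10.3 CPM (-1.08, SE 0.251, limma adjusted p = 0.00399). In neither gene did the groups at 0 h and 24 h overlap. The call for Ls9g70320.1 was lost without replicate 2 of 0 h (-0.98), replicate 3 of 0 h (-0.998) or replicate 3 of 24 h (-0.88).

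Ls2g5961.1 had 10.1, 12.4 and 14.7 CPM before the cold and 2.58, 2.71 and 4.88 CPM after 24 h (-1.63, SE 0.426, limma adjusted p = 0.00822). Ls6g91781.3 had 3.18, 3.81 and 5.85 CPM before the cold and 0.258, 1.14 and 2.51 CPM after 24 h (-1.29, SE 0.347, limma adjusted p = 0.00979). Both lay close to the threshold of the adjusted p. Ls2g5961.1 lost its call under 9 of the 22 alternatives tried and Ls6g91781.3 under 14, with no change of direction. At 4 h, Ls2g5961.1 rested on 1 library, with 41.6 CPM in replicate 2 and 13.4 and 16.3 CPM in replicates 1 and 3, so that replicate 1 was within the range at 0 h.

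Ls5g30860.1 had a large pulse and an uneven return. It stood at 24.7, 41.6 and 39.5 CPM before the cold and 167, 154 and 173 CPM after 4 h, then at 4.49, 6.85 and 35.1 CPM after 24 h and 7.00, 6.24 and 6.38 CPM after 7 d. At 24 h, replicates 1 and 2 had reached the 7 d level while replicate 3 was still within the 0 h range. The log2 fold change at 24 h was -1.61 (SE 0.50, limma adjusted p = 0.0207), which missed the threshold. Without replicate 3 of 24 h it was -2.43 (limma adjusted p = 5.56e-06). Without replicate 1 of 24 h it was -1.07 (limma adjusted p = 0.0983), and edgeR gave -1.22 (adjusted p = 0.0569). The fall was called under 2 alternatives only, without replicate 3 of 24 h and with an adjusted p of 0.05.

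The largest ratios at 4 h, among them that of 4.57 in Ls5g30860.1 above, were in genes without a description, named after their values were seen. Ls6g102220.1, with a ratio of 5.53, had 10.3, 4.50 and 3.09 CPM before the cold, 22.3, 58.6 and 31.6 CPM after 4 h, 3.15, 10.4 and 9.71 CPM after 24 h, and 1.07, 3.31 and 3.90 CPM after 7 d. Ls5g129040.1, with 5.44, had 5.33, 7.03 and 6.19 CPM before the cold, 39.0, 34.7 and 40.6 CPM after 4 h, 2.53, 5.13 and 10.5 CPM after 24 h, and 3.31, 2.70 and 2.64 CPM after 7 d. Ls6g102220.1 was uneven at every time-point and 1 of its 0 h libraries was within the 7 d range, whereas Ls5g129040.1 was even at 4 h and 7 d and spread on both sides of the warm range at 24 h. Ls5g91960.1, with 5.42, had 5.18, 6.09 and 7.81 CPM before the cold, 43.2, 31.6 and 41.8 CPM after 4 h, 7.33, 7.18 and 12.6 CPM after 24 h, and 3.31, 2.93 and 3.69 CPM after 7 d. Ls3g37261.1, with 4.43, had 9.28, 6.19 and 5.62 CPM before the cold, 37.2, 33.6 and 32.9 CPM after 4 h, 7.84, 11.2 and 14.3 CPM after 24 h, and 2.89, 2.43 and 2.69 CPM after 7 d. None of these genes was called at 24 h, with log2 fold changes of 0.33 (SE 0.490), -0.18 (SE 0.303), 0.42 (SE 0.201) and 0.58 (SE 0.193) in the order given and limma adjusted p-values of 0.622, 0.659, 0.112 and 0.0282.

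Members that edgeR called lower at 24 h and limma did not have no description either. Ls5g100940.1 had 26.0, 18.4 and 21.7 CPM before the cold, 33.2, 64.2 and 34.3 CPM after 4 h, 4.28, 10.8 and 12.7 CPM after 24 h, and 4.60, 10.8 and 10.1 CPM after 7 d. Ls1g42781.1 had 35.1, 31.5 and 45.5 CPM before the cold, 75.9, 53.8 and 85.8 CPM after 4 h, 17.0, 16.7 and 22.7 CPM after 24 h, and 21.9, 15.1 and 15.5 CPM after 7 d. In both genes the 24 h libraries were below all 0 h libraries and overlapped with those of 7 d. Limma gave -1.27 (SE 0.373, adjusted p = 0.016) for Ls5g100940.1, which missed the adjusted p, and -0.95 (SE 0.204, adjusted p = 0.00242) for Ls1g42781.1, which was under 2-fold. The other 3 were low genes, Ls4g16061.1, Ls7g17901.1 and Ls5g159741.1, for which adding 1 CPM shrinks the fold. Ls7g17901.1, for example, had 3.13, 3.76 and 3.38 CPM before the cold, 8.13, 5.06 and 7.04 CPM after 4 h, 1.08, 0.951 and 2.13 CPM after 24 h, and 1.23, 1.77 and 1.47 CPM after 7 d, with -0.92 in limma (SE 0.186, adjusted p = 0.00164) and -1.33 in edgeR (adjusted p = 0.0017).

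Ls8g129860.1 was the 1 member called higher at 24 h, and the only one whose 24 h mean exceeded that at 4 h. It had 39.2, 31.6 and 32.0 CPM before the cold, 80.1, 84.7 and 73.8 CPM after 4 h, 88.1, 95.6 and 103 CPM after 24 h, and 14.0, 18.8 and 19.1 CPM after 7 d. Its 24 h libraries were above all those of 4 h, and its 7 d libraries were below all others. The gene rose by 1.46 on the log2 scale at 24 h (SE 0.133, limma adjusted p = 3.09e-06). Ls5g118500.1 was also above the warm level at 24 h, with 95.5, 96.3 and 129 CPM before the cold, 179, 159 and 168 CPM after 24 h and a change under 2-fold (0.66, SE 0.125, limma adjusted p = 0.000971). Neither gene has a description here.

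Both described members of the cytokinin pathway carry the names of type-A response regulators. These are small receiver proteins that cytokinin switches on and that dampen its own signal in Arabidopsis and rice. ORR9 (Ls1g115501.1), named after a rice gene, had 28.7, 24.8 and 25.6 CPM before the cold, 52.6, 49.1 and 52.2 CPM after 4 h, 16.5, 14.6 and 19.3 CPM after 24 h, and 16.3, 12.6 and 13.3 CPM after 7 d. Its replicates lay close together, all 24 h libraries were below all 0 h libraries, and 24 h overlapped 7 d. The change at 24 h was -0.63 on the log2 scale (SE 0.123, limma adjusted p = 0.00132), past the adjusted p but under 2-fold.

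ARR17 (Ls2g126340.1), named after an Arabidopsis gene, was near the limit of detection. It had 0.923, 1.53 and 0.286 CPM before the cold, 2.32, 3.31 and 1.94 CPM after 4 h, 0.258, 0.523 and 0.663 CPM after 24 h, and 0.160, 0.231 and 0 CPM after 7 d, where 2 of the 3 libraries were at or under 3 reads. The 4 h libraries were above all others, and the 24 h and 0 h libraries overlapped (-0.33, SE 0.220, limma adjusted p = 0.259). Of the 5 listed cytokinin and response regulator genes, 2 were called higher at 4 h, neither of them a member. These were cytokinin dehydrogenase 5, an enzyme that degrades the hormone, and LOG3, an enzyme that activates it. At 24 h only LOG7 was called higher, with means of 2.14 CPM before the cold and 16.4 CPM after 24 h, and none of the 5 was called lower.

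The described members held 2 aquaporins of the plasma membrane. PIP1-2 (Ls2g121440.1) had 126, 118 and 156 CPM before the cold, 235, 253 and 249 CPM after 4 h, 70.5, 99.8 and 112 CPM after 24 h, and 44.6, 81.0 and 74.7 CPM after 7 d. PIP2-4 (Ls2g108980.1) had 12, 16.3 and 24.8 CPM before the cold, 42.7, 42.9 and 37.1 CPM after 4 h, 6.76, 9.37 and 15.8 CPM after 24 h, and 4.65, 10.4 and 9.48 CPM after 7 d. The 4 h libraries were above all others in both genes. At 24 h all PIP1-2 libraries were below those of 0 h, whereas those of PIP2-4 overlapped with 0 h, and neither change passed the test (-0.51, SE 0.216, limma adjusted p = 0.0746 for PIP1-2, and -0.70, SE 0.319, limma adjusted p = 0.0968 for PIP2-4).

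Both aquaporins have listed neighbours in the gene order of the IDs. PIP2-4 is flanked by another gene described as PIP2-4 (Ls2g108920.1) and by an aquaporin that the rule set aside. Ls2g108920.1 had 66.4, 77.1 and 123 CPM before the cold, 157, 168 and 138 CPM after 4 h, 11.8, 13.3 and 44.5 CPM after 24 h, and 6.47, 15.2 and 11.8 CPM after 7 d, and with a 4 h ratio of 1.73 it was just short of the rule. The gene next to the PIP1-2 member, Ls2g121480.1, is described as PIP1-2 as well. It had 19.8, 20.7 and 21.4 CPM before the cold, 21.0, 14.4 and 18.2 CPM after 4 h, 3.25, 5.23 and 5.92 CPM after 24 h, and 7.91, 8.36 and 6.53 CPM after 7 d, so that its 4 h libraries overlapped with 0 h. Reads shared between such copies could be split in counting, and this was not tested.

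Over the 15 listed aquaporins, 2 were called higher at 4 h, both set aside by the rule, and none lower, 2 higher and 7 lower at 24 h, and 1 higher and 11 lower at 7 d, with a median log2 fold change of -1.12 at 24 h against 0.04 over all genes. The list was taken from genes that the study had selected as cold-regulated in these same libraries, so a high share of calls follows in part from that selection, which holds for every list given here. Other time courses occurred in the list. The tonoplast aquaporin TIP2-1 (Ls4g101281.1), picked as an example after its values were seen, had means of 2117 CPM before the cold, 1485 CPM after 4 h, 947 CPM after 24 h and 783 CPM after 7 d.

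Signalling kinases were represented by 2 described members. PIX13 (Ls2g3721.1), the name of a receptor-like cytoplasmic kinase of Arabidopsis, had 12, 13.4 and 12.7 CPM before the cold, 27.0, 23.5 and 23.7 CPM after 4 h, 9.96, 11.4 and 10.9 CPM after 24 h, and 6.15, 7.01 and 7.06 CPM after 7 d. The 4 groups did not overlap, and the change at 24 h did not pass the test (-0.22, SE 0.0999, limma adjusted p = 0.101). The receptor-like kinase named after Arabidopsis At5g39000 (Ls1g86800.1) had 2.56, 2.72 and 3.52 CPM before the cold and 7.495, 3.25 and 7.79 CPM after 4 h, so that replicate 2 of 4 h overlapped with 0 h. It had 2.06, 2.28 and 2.94 CPM after 24 h and 1.5, 0.809 and 1.37 CPM after 7 d, with no change called at 24 h (-0.20, SE 0.241, limma adjusted p = 0.539).

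Among 105 listed and tested surface receptors and receptor-like kinases, 26 were called higher at 4 h and none lower, 16 higher and 12 lower at 24 h, and 6 higher and 15 lower at 7 d. Only the 1 gene given above was a member. Among 9 MAP kinase and cytoplasmic kinase genes, 2 were called higher at 4 h and none was called in either direction at 24 h or 7 d.

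**Figure D3:**
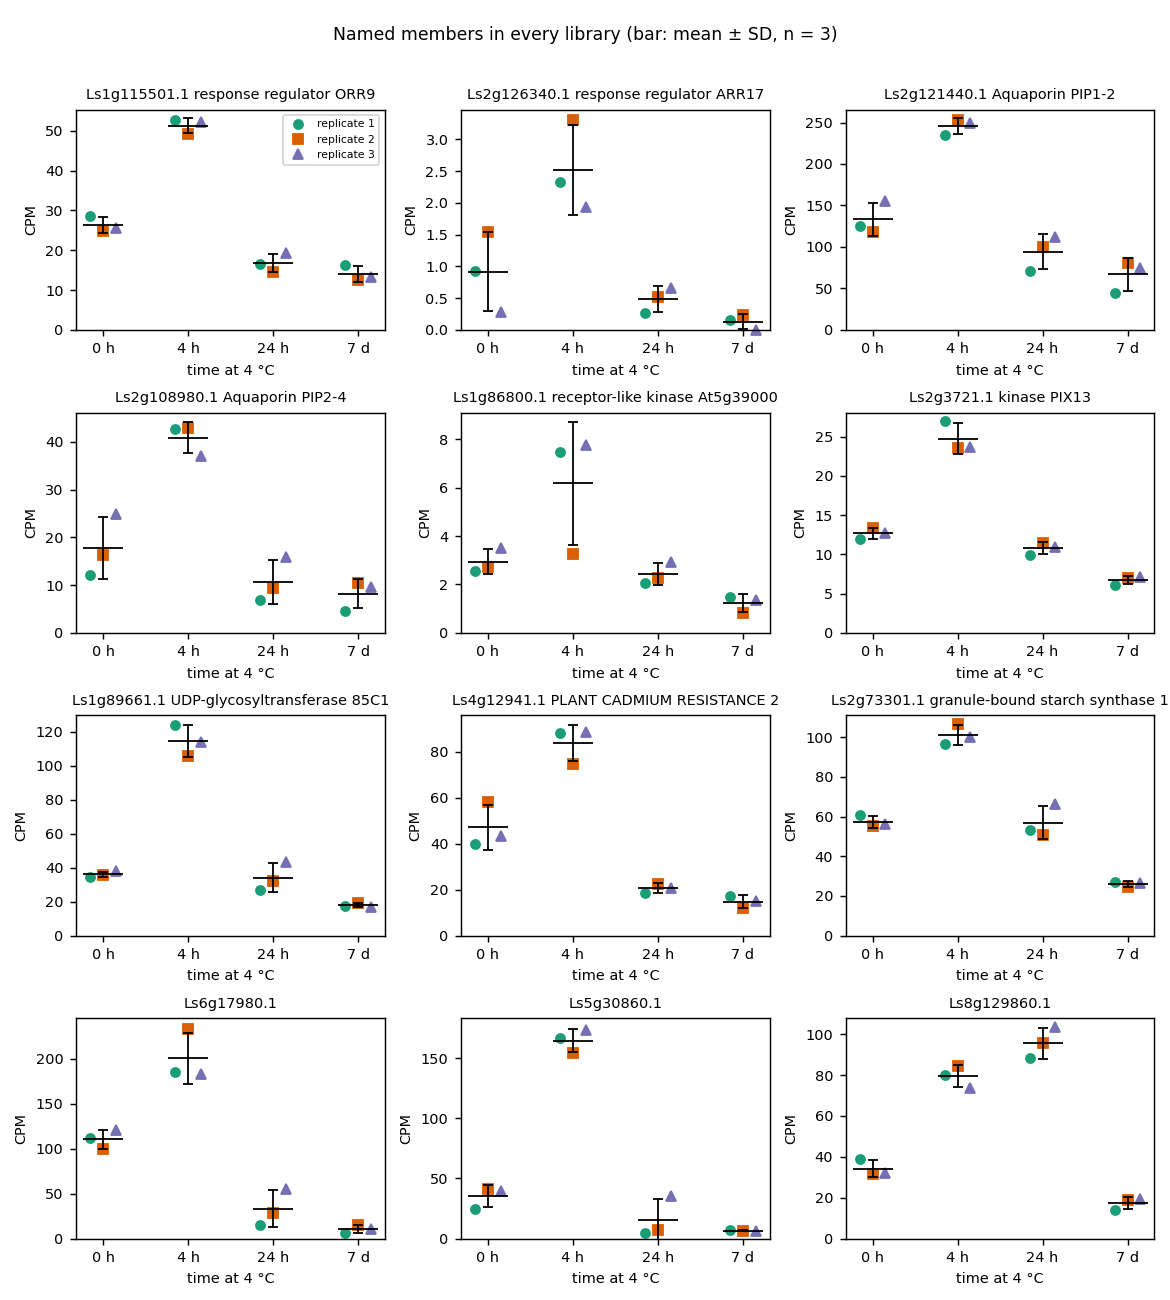
CPM of 12 members in every library of the 4 time-points (linear axes from 0, each gene on its own scale); symbols are replicates 1 to 3 and black bars the mean ± SD (n = 3). Most panels peak at 4 h and end lowest at 7 d, Ls8g129860.1 peaks at 24 h, and replicate 2 of the receptor-like kinase At5g39000 stays low at 4 h.

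None of the members named for sugar transfer, oxidation of small molecules or starch was called at 24 h. UDP-glycosyltransferase 85C1 (Ls1g89661.1), of an enzyme family that attaches sugars to small molecules, had 34.8, 35.5 and 37.8 CPM before the cold, 124, 106 and 114 CPM after 4 h, 26.7, 32.1 and 43.6 CPM after 24 h, and 17.7, 19.1 and 16.8 CPM after 7 d. Its 24 h libraries straddled those of 0 h (-0.10, SE 0.148, limma adjusted p = 0.608). Cytochrome P450 82A3 (Ls4g124941.1), of a family of oxygenases, had 1.28, 1.09 and 3.24 CPM before the cold, 6.28, 4.21 and 7.90 CPM after 4 h, 2.12, 1.90 and 1.94 CPM after 24 h, and 0.428, 1.16 and 0.422 CPM after 7 d, where replicate 2 overlapped with 0 h (24 h against 0 h 0.13, SE 0.263, limma adjusted p = 0.720).

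Of the 74 listed glycosyltransferases and P450s, 33 were called higher at 4 h and none lower, 32 higher and 9 lower at 24 h, and 20 higher and 5 lower at 7 d. Granule-bound starch synthase 1 (Ls2g73301.1), which makes the amylose of starch, had 60.9, 55.2 and 56.3 CPM before the cold, 96.8, 107 and 100.2 CPM after 4 h, 53.5, 50.7 and 66.3 CPM after 24 h, and 27.0, 24.5 and 26.6 CPM after 7 d. The 24 h libraries straddled those of 0 h (-0.02, SE 0.111, limma adjusted p = 0.885). Of 4 listed starch genes, beta-amylase 3 was called higher at every cold time-point, and the other 3, the member included, were called lower at 7 d.

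The gene described as Pathogen-related protein (Ls1g7361.2) had 20.4, 21.7 and 15.9 CPM before the cold, 40.1, 42.0 and 35.6 CPM after 4 h, 14.9, 18.3 and 9.81 CPM after 24 h, and 7.38, 14.3 and 9.64 CPM after 7 d. Its 24 h libraries overlapped with those of 0 h (-0.44, SE 0.232, limma adjusted p = 0.154). Of 52 listed and tested pathogen response genes, 10 were called higher and 1 lower at 4 h, 6 higher and 8 lower at 24 h, and 4 higher and 2 lower at 7 d. None of the 18 described members fell in the lists for nitrate uptake, calcium sensors and channels, ethylene-responsive factors, WRKY factors or salicylate and jasmonate enzymes. Members without a description could not be matched to any list, so whether they hold such genes is not known. Of the genes set aside by the rule, which met both ratios, 2 were nitrate uptake genes and 1 was a WRKY factor.

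The remaining described members, named after their values were seen, were of varied function. The long-chain-alcohol oxidase FAO1 (Ls2g39940.1), an enzyme of fatty alcohol breakdown, had 7.23, 5.79 and 8.33 CPM before the cold, 18.5, 19.4 and 18.1 CPM after 4 h and 3.56, 2.85 and 5.54 CPM after 24 h (-0.73, SE 0.170, limma adjusted p = 0.00418). Its groups at 0 h and 24 h did not overlap, although the change was under 2-fold. Porin 2 (Ls4g160741.1), a channel of the mitochondrial outer membrane, had 15.6, 11.7 and 10.3 CPM before the cold and 15.7, 15.4 and 17.0 CPM after 24 h (0.35, SE 0.154, limma adjusted p = 0.0885). The transcription factor bHLH157 (Ls3g13540.1) had 17.2, 16.6 and 12.5 CPM before the cold, 30.8, 28.8 and 32.5 CPM after 4 h and 15.6, 15.3 and 16.5 CPM after 24 h, within its warm range (0.04, SE 0.125, limma adjusted p = 0.808).

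Proteases and an acyl-activating enzyme were less even between replicates at 4 h. Metalloendoproteinase 1 (Ls3g125760.3), an extracellular protease in soybean, had 27.2, 28.0 and 36.0 CPM before the cold and 109, 50.4 and 182 CPM after 4 h. Oryzain alpha chain (Ls3g90340.1), a cysteine protease in rice, had 5.33, 4.75 and 5.66 CPM before the cold and 15.2, 23.7 and 7.09 CPM after 4 h. Acyl-activating enzyme 12 (Ls3g67580.1) had 3.33, 3.17 and 3.86 CPM before the cold and 14.7, 9.70 and 21.6 CPM after 4 h. Replicate 2 was thus the lowest at 4 h in the metalloendoproteinase and the acyl-activating enzyme and the highest in oryzain, and all 4 h libraries of the 3 genes were above their 0 h libraries. At 24 h none of the 3 was called.

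Of the members with the highest mean CPM, which is not scaled for gene length, only PIP1-2, granule-bound starch synthase 1 and a transmembrane protein have a description. Ls6g15161.1 had 210, 174 and 174 CPM before the cold, 330, 365 and 337 CPM after 4 h, 201, 195 and 224 CPM after 24 h, and 71.8, 105 and 103 CPM after 7 d. Ls1g105600.1 had 50.4, 45.3 and 68.1 CPM before the cold, 119, 138 and 128 CPM after 4 h, 64.7, 60.1 and 70.9 CPM after 24 h, and 32.0, 28.7 and 29.5 CPM after 7 d. At 24 h both overlapped with 0 h, and neither change was called (0.15, SE 0.143, limma adjusted p = 0.420 for Ls6g15161.1, and 0.27, SE 0.139, limma adjusted p = 0.140 for Ls1g105600.1).

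The transmembrane protein (Ls1g10700.1) varied widely at 0 h, with 282, 174 and 134 CPM, followed by 334, 436 and 388 CPM after 4 h, 92.0, 104 and 138 CPM after 24 h, and 57.4, 65.2 and 71.4 CPM after 7 d. The change at 24 h was -0.77 (SE 0.232, limma adjusted p = 0.0179), which missed the threshold. Without replicate 3 of 0 h it was -1.01 (limma adjusted p = 0.00285), the only alternative under which it passed. Without replicate 1 of 0 h, the highest of that time-point, it was -0.48 (limma adjusted p = 0.0642). Ls5g73240.2 had 36.6, 47.1 and 89.6 CPM before the cold, 144, 50.2 and 140 CPM after 4 h, 66.1, 69.2 and 24.2 CPM after 24 h, and 11.9, 7.40 and 11.3 CPM after 7 d. In this gene 1 library of 4 h and 1 of 24 h fell out of line with the other 2 of their time-points, and the change at 24 h was not called (-0.16, SE 0.469, limma adjusted p = 0.818).

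Spread between replicates was wider in the members than in genes overall once the plants were in the cold. The median coefficient of variation was 18.0% in warm-grown plants, against 17.0% over all genes tested. It was 14.7%, 26.7% and 19.5% at the 3 successive cold time-points, against 9.26%, 10.4% and 10.7% over all genes. The genes that met the 4 h ratio but not the 7 d ratio lay between, with 12.9%, 15.6% and 15.0% in the cold, and the difference was not tested. At 24 h replicate 3 was the highest library in 36 members (60%), against 28.4% of all genes, and at 4 h replicate 2 was the lowest in 37 (61.7%), against 38.9%. Members fell on both sides of the 4 h mean in that replicate: it was the highest in 20, among them PIP1-2, PIP2-4, ARR17 and granule-bound starch synthase 1, and the lowest in 37, among them the receptor-like kinase, ORR9, PIX13 and UDP-glycosyltransferase 85C1. Of the 20, replicate 1 was the lowest at 7 d in 14, and it was so in 46.4% of all genes tested. Of the 37, replicate 1 was the highest at 7 d in 22, and it was so in 31.05% of all genes. These shares of all genes were taken whatever the order of the replicates at 4 h, so they are not a like comparison.

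**Figure D4:**
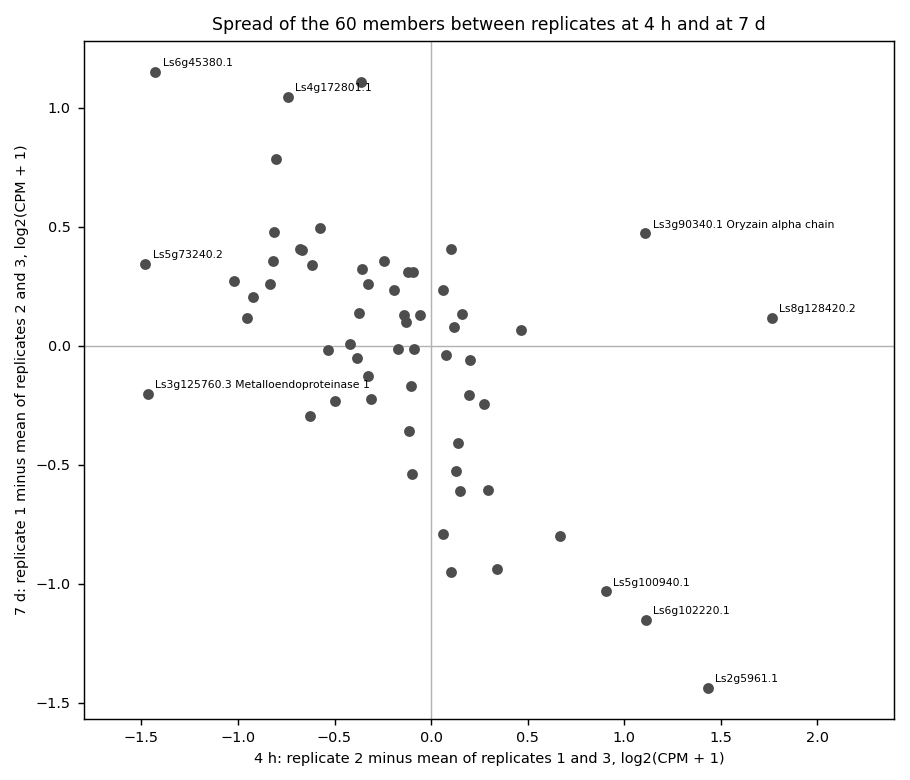
Deviation of replicate 2 from the other replicates at 4 h (horizontal) and of replicate 1 from the others at 7 d (vertical), on log2(CPM + 1), with 1 point for each of the 60 members. Points run from the upper left to the lower right (r = -0.56), with Ls2g5961.1 and Ls6g102220.1 at the lower right and Ls6g45380.1 at the upper left.

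Across the 60 members these deviations at 4 h and at 7 d had r = -0.56 and rho = -0.58, and over all 22306 genes r = -0.24 and rho = -0.16. The points are genes read in the same 6 libraries and are not independent, and the libraries were singled out after the values were seen, so the correlation is a description.

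Some transcripts of the clock moved over the same hours. They were picked by the names REVEILLE and LHY from the study's list of cold-regulated genes, and other clock names were not searched. The mean of LHY was 5.72 CPM before the cold, 70.8 CPM after 4 h, 52.8 CPM after 24 h and 30.2 CPM after 7 d, and that of REVEILLE 1 was 18.7, 285, 110 and 48.6 CPM. Both are morning genes in Arabidopsis. The mean of REVEILLE 8 was 19.0, 84.8, 52.7 and 37.7 CPM in the same order. The part of the time of day in the members' levels was not tested.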

How the data were processed

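The authors mapped paired-end reads to version 8 of the lettuce genome with STAR 2.5.2 and counted them per gene with featureCounts. They deposited CPM values of 23933 genes, scaled by library total only, and the submitters' processing notes also name edgeR. All 12 columns matched a sample title. Of the deposited values, 100% were whole multiples of 1 read within 0.01 reads, so reads could be recovered.

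Limma 3.58.1 (R 4.3.3) was fitted to log2(CPM + 1) of all 12 libraries, without a block, keeping genes that reached 0.5 CPM in 2 or more libraries. A call needed a log2 fold change of 1 or more in size and a p-value of 0.01 or less after Benjamini-Hochberg adjustment over all genes. Fold changes on this scale understate those of low genes. Alternatives covered the pseudocount (0.1), the filter (none), TMM and RLE scaling, only 0 h and 24 h, a replicate block, edgeR 4.0.16, DESeq2 1.42.0, an adjusted p of 0.05, a variance trend and each library left out. The fits were tested on simulated data.

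The members and gene lists were chosen with earlier results of these data known. Genes were named by list membership, by the highest mean CPM, by nearness to a threshold or by adjacency to a gene set aside, and others are marked. Replicates are called biological in the study, but nothing says that they were separate plantings. Floors cover counting error only. Descriptions came from the study's list, 1619 of 1997 genes used here having one, and no ID matched the RefSeq table, so sequences, coordinates and promoters were not analysed here.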

Additional observations from a re-analysis of the deposited data

Results flagged for a closer look

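In 6 of the members called at 24 h, the sign against 0 h differed between time-points with every library on its side, where the 4 h and 7 d signs were fixed by the choice of members. Of these, 5 were above 0 h at 4 h and below it at 24 h, with log2 differences between 24 h and 4 h of -2.74 for Ls6g17980.1, -2.23 for Ls6g91781.3, -2.21 for Ls8g112280.1, -2.04 for Ls9g70320.1 and -1.97 for Ls4g12941.1. Ls8g129860.1 was above 0 h at 24 h and below it at 7 d, with a difference between 7 d and 24 h of -2.41. No p-value is given for these differences, since the 4 h and 7 d values chose the members.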

How the results depend on the processing

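The 1 member called higher at 24 h was called under all 22 alternatives. The count called lower, 6, was 10 with edgeR's quasi-likelihood test (5 shared) and lay between 3 and 10 when single libraries were left out, at 3 without replicate 2 of 0 h (2 shared) and 10 without replicate 3 of 24 h (5 shared). Under the other alternatives it lay within 1.5 times. The description at 4 h, 32 members past the threshold, ran from 23 to 35 without single libraries. At 7 d it was 29, with 21 to 30 without single libraries, 44 with RLE scaling, 54 with edgeR and 55 with DESeq2. The share of all genes called lower moved too, from 3.55% in limma to 6.26% in edgeR at 24 h and from 3.41% to 7.63% at 7 d. Shares under the other alternatives were not counted, so nothing about the members is read from these shifts. The median of all genes at 7 d was 0.15 on the log2 scale as deposited and 0.02 after TMM scaling, and all 60 members stayed below 0 in both. The rule itself gave 183 genes with 0.1 CPM added in place of 1 CPM (60 shared), 74 with TMM (54 shared), 68 with medians (45 shared) and 55 to 71 without single libraries. Of 550 recomputed log2 fold changes of 25 genes, none reversed its sign while called, 27 lost and 7 gained a call, in 7 genes.

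Whether the same replicate number pairs the libraries was not settled. Correlations of deviations from the group means ran from -0.22 to 0.19 for the same number and from -0.24 to 0.26 for different numbers. Pairs of replicate 2 libraries were all positive, from 0.04 to 0.18, whereas those of replicates 1 and 3 had both signs. Of 12 libraries, 7 correlated best with one of their own number. With the number as a replicate block, 8 members were called lower and 1 higher at 24 h, 32 were past the threshold at 4 h and 31 at 7 d. The shares of all genes called with the block were not counted. At 7 d, where 2 of the 3 ARR17 libraries were at or under 3 reads, a further fall was not detectable at this depth.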
